A study of Rattus norvegicus with 29 samples.

Results

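miR-137, miR-138 and miR-153 were followed as a set in rat plasma by taking each row of the miRNA count table whose name, without the species prefix, has exactly one of these stems, with any copy number or arm. Of 754 rows, 7 met this rule: rno-miR-137-3p, rno-miR-137-5p, rno-miR-138-5p, rno-miR-138-1-3p, rno-miR-138-2-3p, rno-miR-153-3p and rno-miR-153-5p, given below without the prefix. The rule used names alone and no measured value. The 29 rats were adult male Sprague-Dawley animals, each with 1 small RNA library made from tail vein plasma drawn under isoflurane 48 h after surgery. They were either sham-operated experimental controls, which had the surgery but no impact, or rats with traumatic brain injury (TBI) from lateral fluid percussion, a pressure pulse on the exposed dura. Injured rats were later divided by video-EEG into those without epilepsy (TBI−) and those with epilepsy (TBI+). UEF contributed 4 sham, 4 TBI− and 4 TBI+ rats, Monash contributed 3, 3 and 2, and UCLA contributed 3, 3 and 3. No naive rats were compared here, so both sham and TBI rats carried the effects of anesthesia and craniectomy.

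miRNAs are short RNAs that guide the Argonaute proteins to partly matching messenger RNAs and lower the output of those messengers. Each hairpin precursor can give a 5p and a 3p mature arm, and the seed, the bases 2 to 8 of the mature arm, carries most of the pairing to targets. All 3 families are known as enriched in neurons: miR-137 in neuronal differentiation and synaptic vesicle release, miR-138 in the size of dendritic spines through the depalmitoylating enzyme Lypla1, and miR-153 as a repressor of the synaptic proteins Snap25 and alpha-synuclein. In plasma, release by more cells and more RNA released per cell cannot be told apart.

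The mature sequences are shown first because the 7 rows are told apart only by these bases. They were taken from RefSeq, build GRCr8, which held a mature sequence for 681 of the 754 rows and for all 7 members, and the seed is in capitals.
miR-137-3p: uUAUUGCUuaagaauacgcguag
miR-137-5p: aCGGGUAUucuuggguggauaa
miR-138-5p: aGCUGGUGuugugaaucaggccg
miR-138-1-3p: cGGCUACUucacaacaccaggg
miR-138-2-3p: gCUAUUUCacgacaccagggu
miR-153-3p: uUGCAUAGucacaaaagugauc
miR-153-5p: gUCAUUUUugugauguugcagcu
The 7 seeds all differ, and none of the other rows with a RefSeq sequence has one of them. The sequences are 21 to 23 bases long, and no correction for length was made. The paper names biases in library amplification among the factors that can affect small RNA profiling. Such bias was not measured here, so ranks and ratios between rows compare reads and not molecules.

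The miR-138 precursors decide how far the miR-138 rows can be read, so both hairpins are given, with the mature arms in capitals.
Mir138-1: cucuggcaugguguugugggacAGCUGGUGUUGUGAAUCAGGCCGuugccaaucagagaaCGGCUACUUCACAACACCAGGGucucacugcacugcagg
Mir138-2: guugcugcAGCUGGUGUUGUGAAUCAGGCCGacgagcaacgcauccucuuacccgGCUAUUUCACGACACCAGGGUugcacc
The 5p arm is the same in both, so miR-138-5p counts cannot be assigned to a precursor, whereas the 3p arms differ at 2 of 20 aligned bases and have separate rows. Mir138-1 lies at chr8:131178434-131178532 on the plus strand of GRCr8, inside the spans of the long non-coding RNAs LOC103690480 and LOC102550701. Mir138-2 lies at chr19:10680133-10680214 on the minus strand, inside the span of Slc12a3, which encodes the thiazide-sensitive sodium chloride cotransporter. Mir137 lies at chr2:209165709-209165810 on the plus strand inside LOC120100931, a long non-coding RNA. Mir153 lies at chr6:144306594-144306680 on the plus strand inside the spans of Ptprn2, a dense-core vesicle protein of neurons and endocrine cells, and of the long non-coding RNA LOC120093227.

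The libraries held 1162307 to 5223469 miRNA counts per rat, with a median of 2713557, and no pair of rats had identical counts. The 7 members together took 0.0101% to 0.0870% of a rat's counts. Levels are given as CPM, each count relative to a common library total, scaled by edgeR's TMM factors, which correct for the share of counts taken by a few abundant miRNAs. UEF sham rat 3 stood apart with the largest total and a TMM factor of 0.333, against a range up to 1.76 in all rats. The other brain-enriched miRNAs listed for comparison were all above 0 in each rat for the 24 of 26 found. Plasma has no cell type of its own, and the summed level of 5 red cell miRNAs was 128688 to 632834 CPM.

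The 7 members were low to middle in abundance. miR-137-3p had a median of 132 CPM over the 29 rats and ranked 162 among the 754 rows, followed by miR-138-5p with 94.9 CPM at rank 193 and miR-138-2-3p with 62.7 CPM at rank 257. miR-137-5p and miR-138-1-3p were close to each other, with medians of 33.8 and 32.8 CPM at ranks 365 and 368. miR-153-3p, with 10.9 CPM at rank 628, and miR-153-5p, with 5.75 CPM at rank 715, were the lowest. The spread over rats within each row was wide, and the ranges of neighbours in this order overlapped.

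The counts behind these levels set their precision. A median of 329 counts per rat was read for miR-137-3p and 245 for miR-138-5p, against 33 for miR-153-3p and 15 for miR-153-5p. At least 10 counts were read in all 29 rats for each row but miR-153-5p, which had them in 20 rats. miR-153-5p had 0 counts in 4 rats, namely Monash sham rat 3, Monash TBI− rat 2 and UCLA TBI− rats 2 and 3, where a count of 0 allows a level of up to 2.44, 0.924, 1.22 and 1.18 CPM (3 counts, counting error only). The coefficient of variation over rats ran from 24.4% for miR-138-5p to 119% for miR-153-5p, while counting alone would give at least 6.30% and 21.9%, a lower limit since several reads may come from 1 molecule. The spread over rats includes the sites and conditions.

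**Figure D1:**
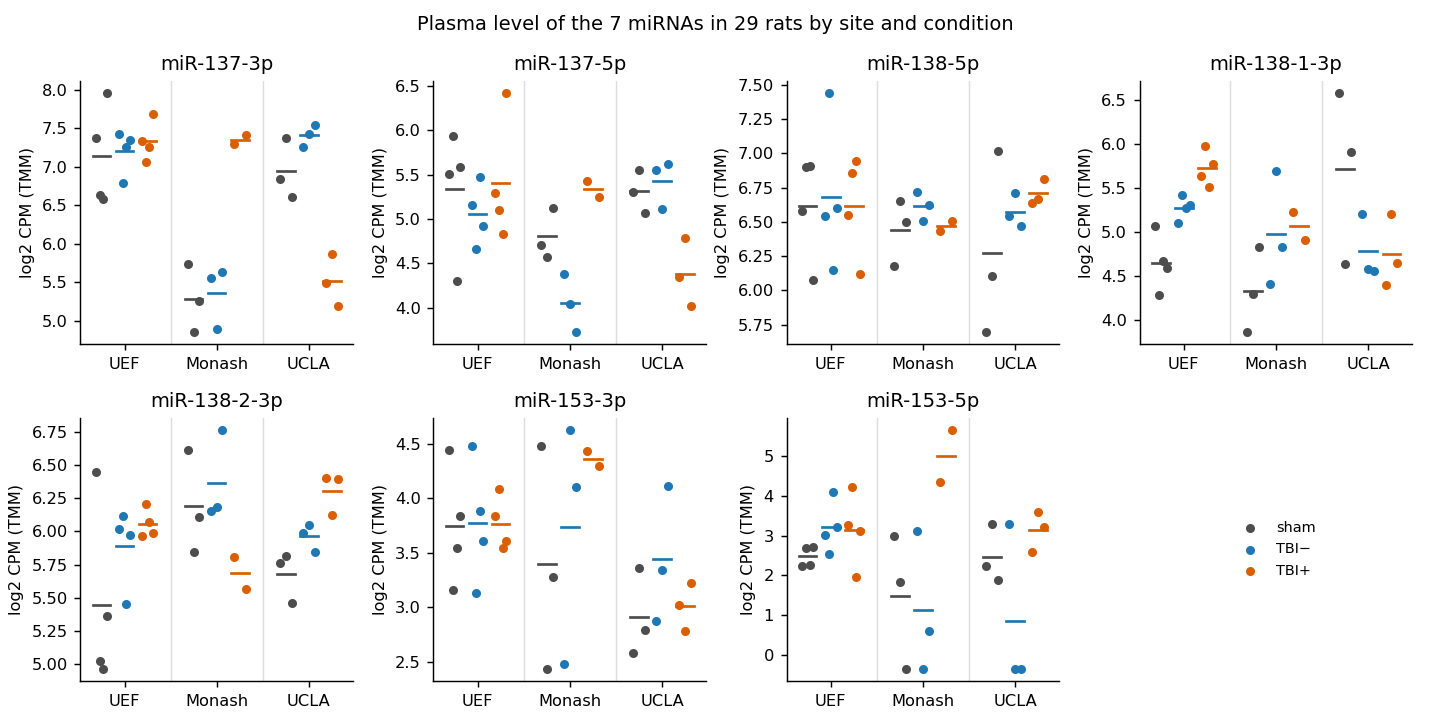
Each panel shows 1 member, with log2 CPM (TMM-scaled) on the vertical axis and the 9 site and condition groups on the horizontal axis. Points are single rats and bars are group means, and in the miR-137-3p panel the Monash sham, Monash TBI− and UCLA TBI+ rats lie below all others.

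The first comparison asked whether the members changed in plasma after injury. None of the 7 passed the test of the 19 TBI rats against the 10 sham rats. miR-137-3p ranged from 28.2 CPM over a median of 97.8 to 247 CPM in sham rats and from 28.96 over 152 to 204 CPM in TBI rats, and miR-137-5p from 19.0 over 36.5 to 60.6 CPM against 12.4 over 33.5 to 84.8 CPM. The ranges overlapped almost fully for both arms. miR-138-5p went from 51.0 over 92.2 to 129 CPM in sham and from 68.6 over 96.1 to 173 CPM in TBI rats, miR-138-1-3p from 13.8 over 24.5 to 95.1 CPM against 20.3 over 36.2 to 62.4 CPM, and miR-138-2-3p from 30.4 over 54.6 to 97.1 CPM against 42.9 over 65.5 to 108 CPM. miR-153-3p was at 4.62 over 9.23 to 21.5 CPM in sham and 4.80 over 11.4 to 24.0 CPM in TBI rats, and miR-153-5p at 0 over 3.97 to 9.04 CPM against 0 over 7.96 to 50.3 CPM. The TBI medians were higher in all but miR-137-5p, but no member separated the conditions.

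In edgeR's quasi-likelihood test with site in the model, adjusted over the 751 miRNAs tested, 0 of the 7 members were called, 0 had an unadjusted p below 0.05, and DESeq2 called 0 of the 6 to which it gave an adjusted p. Across all miRNAs tested 1.2% were called. The largest log2 fold change (TBI over sham) was 0.88 for miR-153-5p, with a 95% interval from -0.30 to 2.06 and an edgeR adjusted p of 0.642. miR-138-2-3p had 0.28 (-0.06 to 0.63, edgeR adjusted p 0.601) and miR-137-3p 0.25 (-0.34 to 0.85, edgeR adjusted p 0.833). In this fit over all sites, the intervals allow a doubling, a log2 change of 1, for miR-153-5p and exclude it for each of the other 6. 

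The other brain-enriched miRNAs give the surroundings of this result. This list, like those for other sources below, was chosen with earlier results of these data known. It includes miRNAs that the paper reports as regulated after TBI in the sequencing. The comparison of the list with all miRNAs tested is therefore a description and no outside reference. Of the 24 found of 26 listed, 3 rose with TBI and 0 fell, with a median log2 fold change of 0.25 beside 0.03 over all 751. They were miR-323-3p with 1.21 ± 0.20 (SE, edgeR adjusted p 6.33e-04), miR-129-5p with 0.94 ± 0.20 (edgeR adjusted p 0.0187) and miR-128-3p with 0.99 ± 0.23 (edgeR adjusted p 0.0187). The median over the 7 synaptic members was 0.25. Among lists for other sources, liver miRNAs had a median of -1.26 with 2 of 4 lower, and red cell, muscle, and white cell and platelet miRNAs had medians of 0.62, 0.31 and 0.25 with 0 called of 5, 6 and 4.

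**Figure D2:**
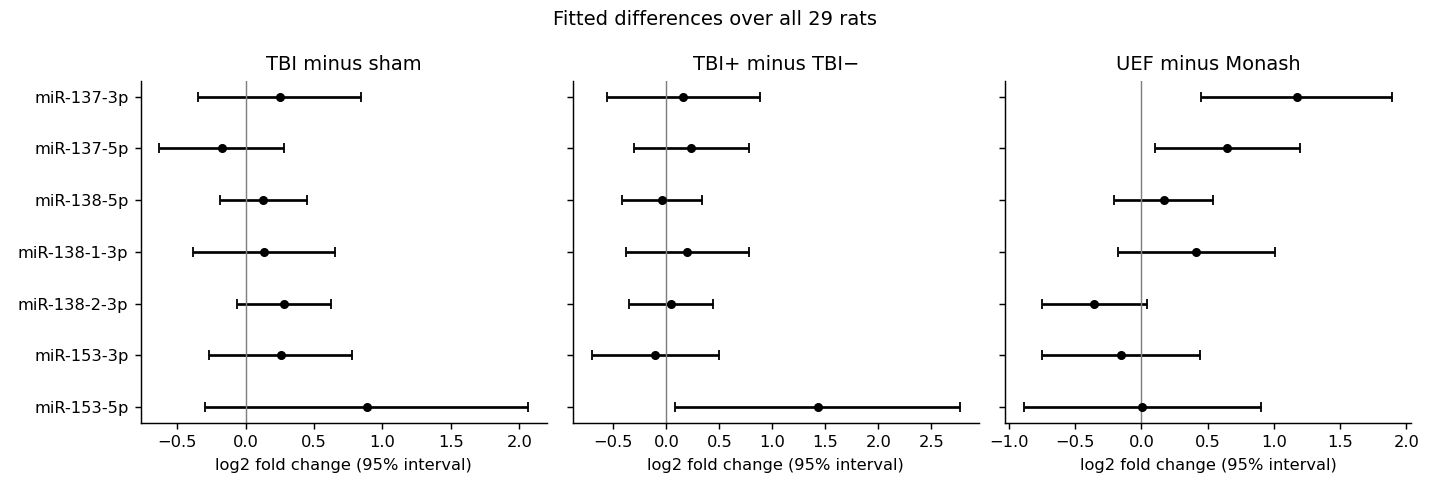
The log2 fold change of each member is plotted with its 95% interval for TBI minus sham, TBI+ minus TBI− and UEF minus Monash, all 29 rats in 1 model. Intervals cross 0 in the first panel for all 7 members, and miR-137-3p lies highest in the UEF minus Monash panel at 1.17.

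The next comparison asked whether the level 48 h after injury differed between rats that later had epilepsy and those that did not. Over the 3 sites together, 0 of 7 members differed between the 9 TBI+ and the 10 TBI− rats in edgeR, 1 had an unadjusted p below 0.05, and DESeq2 called 0. Of all miRNAs tested 0% were called in this comparison, and 18 of 751 had an unadjusted p below 0.05. miR-153-5p, the low row of the miR-153 pair, ranged from 0 over a median of 6.16 to 16.3 CPM in TBI− and from 3.10 over 8.80 to 50.3 CPM in TBI+ rats. Its log2 fold change of 1.43 (0.08 to 2.77) had an unadjusted p of 0.0385 and an edgeR adjusted p of 0.998, and 3 of the 4 rats without a read were TBI−. The other 6 members had log2 fold changes between -0.11 and 0.24. Within the brain list 0 of 24 were called, with miR-212-5p (-0.54), miR-9a-5p (0.35) and miR-124-5p (0.38) lowest in p.

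Within sites, miR-137-3p differed between TBI+ and TBI− rats in opposite directions. At UEF its TBI− rats were at 171, 109, 152 and 162 CPM and its TBI+ rats at 161, 132, 151 and 204 CPM, which overlap. At Monash the TBI− rats were at 46.3, 28.96 and 49.05 CPM and the TBI+ rats at 156 and 170.1 CPM. At UCLA the order was the other way, with TBI− rats at 152, 171 and 186 CPM and TBI+ rats at 44.2, 57.8 and 36.0 CPM. The groups did not overlap at Monash or at UCLA.

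A model with 1 mean for each site and condition, chosen after the values had been seen, gave the size of these differences. In TBI+ relative to TBI− rats, miR-137-3p rose at Monash by 1.98 ± 0.38 on the log2 scale (SE, edgeR adjusted p 0.00145) and fell by 1.88 ± 0.35 at UCLA (edgeR adjusted p 0.00109), with 0.12 ± 0.29 at UEF (edgeR adjusted p 0.997). The difference between sites had an edgeR adjusted p of 2.45e-05. miR-137-5p, the other arm of the same hairpin, had differences of 0.47 at UEF, 1.31 at Monash and -1.06 at UCLA, none past the threshold alone in edgeR (adjusted p 0.997, 0.056 and 0.116). At Monash it passed in DESeq2 (adjusted p 0.0276) and in edgeR with the hemolysis ratio, a measure of red cell lysis, as a covariate (adjusted p 0.0483). Its difference between sites had an edgeR adjusted p of 0.0148, or 0.0593 without UCLA TBI+ rat 1 and 0.0684 without UCLA TBI+ rat 3. The other 5 members had edgeR adjusted p of 0.207 to 0.908 for the difference between sites. In all, 2 of the 7 members passed at Monash, 1 at UCLA, 0 at UEF (0 also at an unadjusted p below 0.05 and by DESeq2) and 2 for the difference between sites, where 8.52%, 6.66%, 0% and 9.05% of all miRNAs did. DESeq2 called 3 at Monash, 1 at UCLA and 2 for the difference between sites.

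The reversal was shared by other miRNAs. Of the 64 miRNAs called at Monash and the 50 called at UCLA, 27 were in both lists, 42.2% of the first and 54% of the second, and all 27 had opposite directions. The 2 comparisons share no rats. In the brain list, miR-7b rose at Monash (1.72 ± 0.37, edgeR adjusted p 0.00289), with -1.03 at UCLA (edgeR adjusted p 0.0613, by site 0.00102). miR-212-5p fell by 1.77 ± 0.52 at UCLA (edgeR adjusted p 0.0342) but had 0.19 at Monash and no call by site (edgeR adjusted p 0.138). Of this list 1 of 24 was called at Monash, 1 at UCLA and 1 by site. Of the white cell and platelet list 1 of 4 was lower at Monash, with a median of -1.09 over the list, where its summed level was 84182 to 118864 CPM in TBI− and 60091 to 68333 CPM in TBI+ rats. At UCLA 1 of 4 was higher and the median was 0.84, with 81365 to 85038 CPM in TBI− and 98449 to 160677 CPM in TBI+ rats, and 1 of 4 differed between sites. Of the red cell list 2 of 5 differed between sites, both being arms of miR-144. miR-144-5p had -1.64 at Monash (edgeR adjusted p 0.0595) and rose by 1.54 at UCLA (edgeR adjusted p 0.0437, by site 0.00477), and miR-144-3p had -0.81 and 1.09 (by site 0.0378). The list had medians of -0.67 at Monash, with 0 of 5 called, and 0.38 at UCLA, with 1 of 5. Its summed level was 237221 to 322501 CPM in TBI− and 212693 to 216573 CPM in TBI+ rats at Monash, and 363845 to 513716 and 364912 to 568594 CPM at UCLA, where they overlapped. Of the muscle list 1 of 6 was called at Monash, 0 at UCLA and 1 by site. It was miR-208b-3p, higher at Monash by 1.38 (edgeR adjusted p 0.0333), with -1.17 at UCLA (edgeR adjusted p 0.0519, by site 0.00493), while the list had medians of -0.68 and 0.18 and summed levels of 797 to 41021 against 953 to 6336 CPM at Monash and 392 to 501 against 776 to 1130 CPM at UCLA. Of the liver list 0 of 4 were called at either site or by site. Each miRNA found of the white cell and platelet, red cell and muscle lists was above 0 in each rat. The part of these sources in the miR-137 result was not tested.

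**Figure D3:**
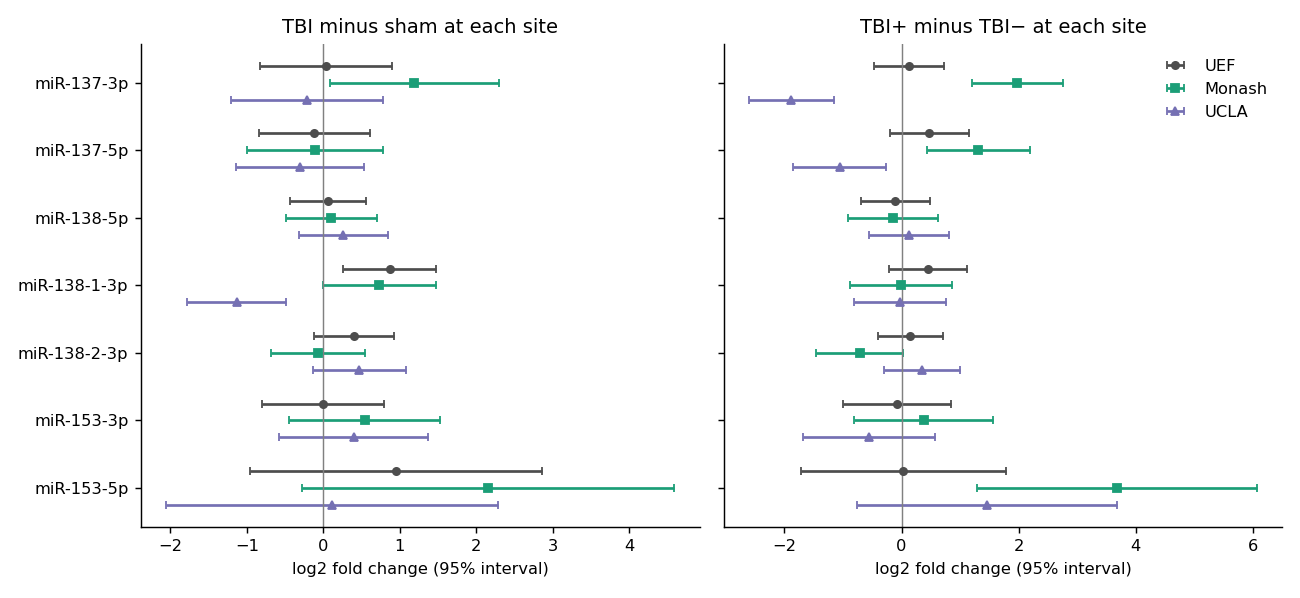
Log2 fold changes with 95% intervals are shown at UEF (circles), Monash (squares) and UCLA (triangles) for TBI minus sham on the left and TBI+ minus TBI− on the right. The miR-137-3p intervals on the right lie wholly above 0 at Monash and wholly below 0 at UCLA, and the miR-138-1-3p interval on the left is below 0 at UCLA alone.

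The second rise at Monash was in miR-153-5p. Its counts there were 18, 0 and 2 in the TBI− rats, or 7.86, 0 and 0.732 CPM, and 32 and 120 in the TBI+ rats, or 19.7 and 50.3 CPM. The groups did not overlap, but they hold 5 rats with few reads. The log2 fold change was 3.68 ± 1.17 (SE, edgeR adjusted p 0.0483), and without Monash TBI+ rat 2 it was 2.84 (edgeR adjusted p 0.435), in a fit where the remaining rat of that group is assumed to vary like the other groups. The call was lost in 19 of the 29 fits that left out a rat, 4 of these rats being from the Monash TBI groups. It also depended on the scaling, with an edgeR adjusted p of 0.0914 when total counts alone were used, and was lost with the hemolysis ratio as a covariate (edgeR adjusted p 0.0536). The difference between sites did not pass the threshold (edgeR adjusted p 0.207).

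Sham rats placed the miR-137-3p values at Monash and UCLA in context. They were at 52.4, 28.2 and 37.4 CPM at Monash, at 114, 166 and 96.7 CPM at UCLA and at 165, 98.9, 95.4 and 247 CPM at UEF. Monash sham and TBI− rats and UCLA TBI+ rats, 9 in all, thus lay between 28.2 and 57.8 CPM, while the other 20 rats lay between 95.4 and 247 CPM. The raw counts did not overlap either, with 46 to 134 in the 9 rats and 166 to 602 in the other 20. Among all 751 miRNAs tested, 2.8% had CPM ranges that did not overlap between these label groups, all 21 of them lower in the 9 rats. These 3 groups were singled out after their values had been seen, so the separation is a description with no test. The other 6 members overlapped between the 9 and the 20 rats, miR-137-5p with 12.4 to 34.2 CPM against 19.0 to 84.8 CPM.

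The 9 rats also stood side by side in the count table, in columns 15 to 23 of 29, which put the 2 Monash TBI+ rats before them and the UCLA TBI− and sham rats after them. What the order of columns stands for is not given in the sources used here, and no batch is labelled, so its part in the difference was not tested. The opposite TBI+ differences at Monash and UCLA rest on the group labels of these columns, which were taken as deposited, and an exchange of labels between columns was not tested. Total counts were 1162307 to 3976506 in the 9 rats and 1320300 to 5223469 in the other 20. The hemolysis ratio, the log2 ratio of miR-451-5p to miR-23a-3p, was -3.38 to -1.33 and -3.57 to -0.87. Both measures overlapped.

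**Figure D4:**
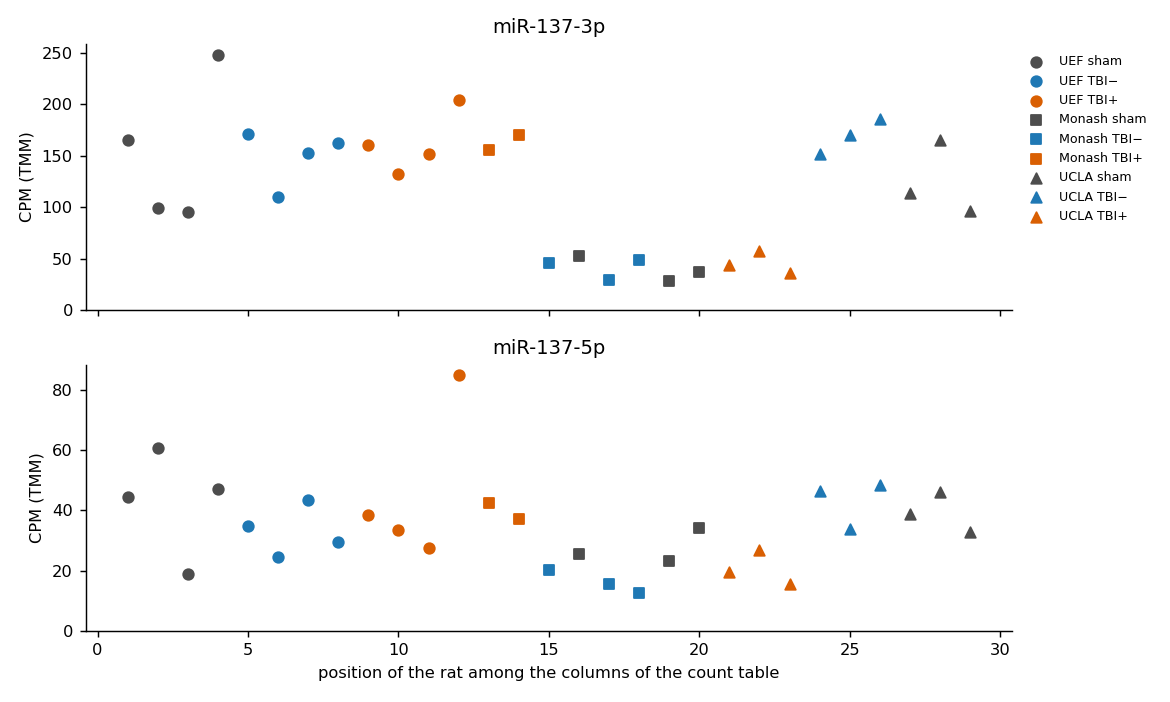
CPM of miR-137-3p (top) and miR-137-5p (bottom) is plotted against the position of each rat among the 29 columns of the count table, with colour for condition and marker shape for site. The rats in columns 15 to 23 lie at 28.2 to 57.8 CPM for miR-137-3p, and the miR-137-5p values of these rats overlap those of the rest.

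Sites were then compared with condition in the model. The low miR-137-3p values of the Monash sham and TBI− rats described above enter here again, while the Monash TBI+ rats lay within the UEF range. Among the 7 members, miR-137-3p had the lowest p over the 3 sites. It ranged from 95.4 over a median of 157 to 247 CPM in the 12 UEF rats, from 28.2 over 47.7 to 170.1 CPM in the 8 Monash rats and from 36.0 over 114 to 186 CPM in the 9 UCLA rats. Over the 3 sites together 0 of the 7 members were called in edgeR, 2 had an unadjusted p below 0.05 and DESeq2 called 1, where 14.8% of all miRNAs were called. miR-137-3p missed narrowly with an edgeR adjusted p of 0.0548, and miR-153-3p had 0.115.

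For UEF minus Monash, 1 of 7 members was called against 9.99% of all miRNAs. This was miR-137-3p, with a log2 fold change of 1.17 ± 0.35 (SE, 0.45 to 1.89, edgeR adjusted p 0.0389). The call was lost with total counts alone as the scaling, at 1.12 (edgeR adjusted p 0.191), and in TBI rats alone, at 0.78 (edgeR adjusted p 0.479). It was lost in 15 of the 29 fits that each left out a rat, each of which left out 1 of the 6 Monash sham and TBI− rats, of 7 UEF rats or of 2 UCLA rats, with an adjusted p of up to 0.116 without Monash sham rat 2. miR-137-5p had 0.65 ± 0.27 (edgeR adjusted p 0.116). None of the 7 passed for UEF minus UCLA or Monash minus UCLA in edgeR, with 1 at an unadjusted p below 0.05 in each and 0 by DESeq2, against 9.32% and 5.46% of all miRNAs. The lowest p in both belonged to miR-153-3p, at 7.98 over 12.5 to 21.6 CPM at UEF, 4.62 over 17.7 to 24.0 CPM at Monash and 5.19 over 7.36 to 16.5 CPM at UCLA. Its log2 fold changes against UCLA were 0.69 for UEF (edgeR adjusted p 0.161) and 0.85 for Monash (edgeR adjusted p 0.134).

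The effect of TBI against sham was then compared between sites, since sites held different animals. One of the 7 members, miR-138-1-3p, had an effect that differed between sites (edgeR adjusted p 0.0343), where 1.07% of all miRNAs did. At UEF its sham rats were at 32.8, 18.7, 24.7 and 23.4 CPM, its TBI− rats at 33.7, 42.2, 38.1 and 39.0 CPM and its TBI+ rats at 49.1, 62.4, 45.0 and 54.0 CPM. Each UEF TBI rat was above each UEF sham rat. At UCLA the sham rats were at 95.1, 24.3 and 59.7 CPM, above or among the TBI− rats at 36.1, 23.2 and 22.8 CPM and the TBI+ rats at 20.3, 36.2 and 24.4 CPM. At Monash sham rats at 13.8, 18.9 and 27.6 CPM overlapped TBI− rats at 20.5, 51.1 and 27.8 CPM, with TBI+ rats at 36.9 and 29.3 CPM.

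The fitted TBI effects of miR-138-1-3p were 0.86 ± 0.30 at UEF (SE, edgeR adjusted p 0.107), 0.73 ± 0.36 at Monash (edgeR adjusted p 0.650) and -1.14 ± 0.32 at UCLA (edgeR adjusted p 0.135), none past the threshold alone in edgeR. Without UCLA sham rat 1, the rat at 95.1 CPM, the effect at UCLA was -0.65 (edgeR adjusted p 0.565) and the difference between sites had an edgeR adjusted p of 0.175. The call was lost for 9 other single rats left out, with an edgeR adjusted p of 0.0738 without UEF sham rat 3, which stood apart in depth, and of 0.0515 to 0.0719 without UEF TBI− rat 3, UEF TBI+ rats 2 or 4, Monash sham rat 1, UCLA TBI− rats 2 or 3, or UCLA TBI+ rats 1 or 3. With the hemolysis ratio as a covariate it was 0.0521. For the same difference between sites miR-138-5p had an edgeR adjusted p of 0.928 and miR-138-2-3p of 0.672. In edgeR 0 of the 7 members passed at any single site, where 3.86%, 0% and 0.266% of all miRNAs passed at UEF, Monash and UCLA. At each site 1 member had an unadjusted p below 0.05, miR-138-1-3p at UEF and UCLA and miR-137-3p at Monash. The TBI effect of miR-137-3p at Monash was 1.19 (0.09 to 2.29, unadjusted edgeR p 0.0352, adjusted p 0.562), an interval that includes a doubling. It rested on the TBI+ rats at 156 and 170.1 CPM. The Monash TBI− rats, at 28.96 to 49.05 CPM, overlapped the sham rats at 28.2 to 52.4 CPM. DESeq2 called 1, 0 and 1 at UEF, Monash and UCLA, and gave no adjusted p to 2 of the 7 at UEF. The member called was miR-138-1-3p, at 0.84 for UEF (DESeq2 adjusted p 0.0495) and -1.19 for UCLA (DESeq2 adjusted p 0.0429).

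Ratios within a library need no scaling between libraries, so the arms of each precursor were compared directly on counts with 0.5 added. The 3p arm of miR-137 exceeded the 5p arm in all 29 rats, with a log2 ratio of 0.13 to 2.45 and a median of 1.84. UEF rats had 0.70 to 2.45, Monash rats 0.13 to 2.18 and UCLA rats 1.10 to 2.33. In the UCLA TBI+ rats it was 1.10, 1.16 and 1.21, below the 1.71 to 2.33 of the UCLA TBI− rats. The UCLA TBI+ group was singled out after its low miR-137-3p had been seen, so this is a description, and the TBI+ minus TBI− difference over all sites had an adjusted exact permutation p of 0.601. The UEF minus Monash difference was 0.75 (two-sided exact permutation p 0.0150, adjusted 0.150 over the 20 ratio tests).

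miR-138-5p, made by both precursors, exceeded miR-138-1-3p in 28 of the 29 rats, with a median log2 ratio of 1.499 and a range of -0.90 to 2.65. The exception was UCLA sham rat 1, with 118 counts of miR-138-5p and 220 of miR-138-1-3p. The ratio differed by -0.10 between TBI and sham and by -0.23 between TBI+ and TBI− (two-sided exact permutation p 0.750 and 0.328). miR-138-1-3p was below miR-138-2-3p in 27 rats, with a median log2 ratio of -0.78, and the 2 rats above 0 were UCLA sham rats 1 and 3. It was -1.39 to -0.17 at UEF and -2.79 to -0.49 at Monash, which overlap, and the difference of 0.75 on the log2 scale did not pass after adjustment (two-sided exact permutation p 0.00283, adjusted 0.0566).

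Among the ratios, that of miR-153-3p to miR-153-5p had the widest range, -1.41 to 7.29 on the log2 scale with a median of 0.61. The range is set in part by the 4 rats without miR-153-5p reads. The difference between TBI+ and TBI− rats was -2.30 (two-sided exact permutation p 0.0619, adjusted 0.303). Among rats with at least 10 counts of both arms it was 0.12, so it rests on the rats with few or no reads of miR-153-5p. None of the 20 ratio tests had an adjusted p below 0.05.

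**Figure D5:**
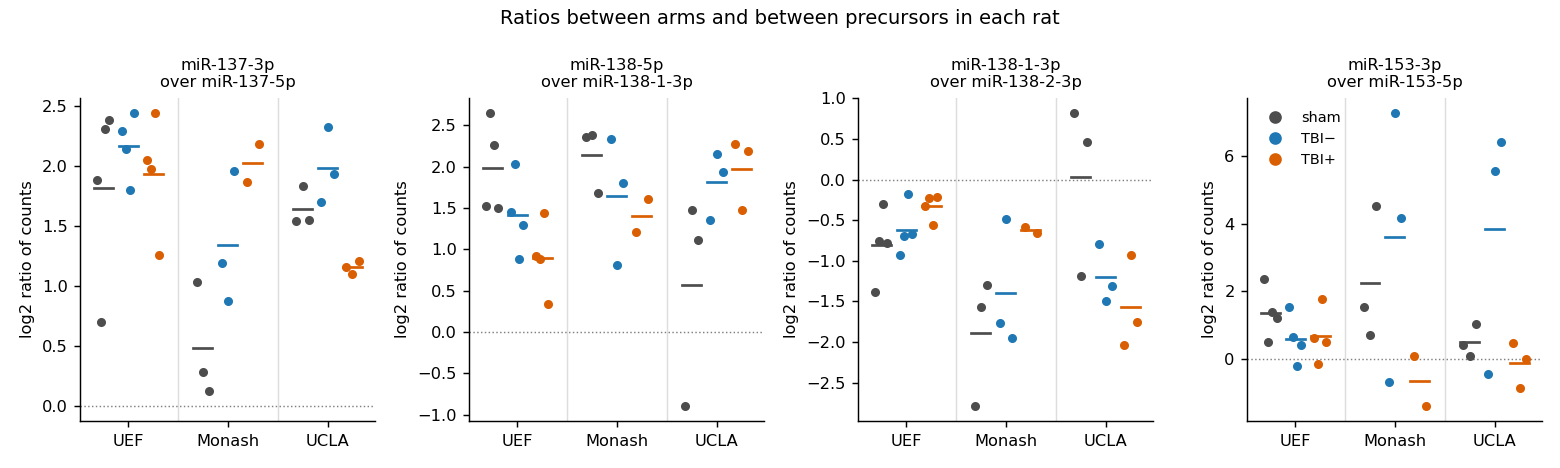
Log2 ratios of counts in each rat are plotted for 4 pairs by site and condition, with bars at group means and a dotted line at equal counts. The miR-137 ratio is above 0 in all 29 rats, and the 3 highest miR-153 ratios, 5.55 to 7.29, are TBI− rats without a read of miR-153-5p.

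Rat-to-rat variation was then compared between members on log2 CPM. Of the 21 pairs, 1 passed by Pearson's r, miR-137-3p with miR-137-5p, with an adjusted permutation p of 4.20e-04 (100000 resamples). By Spearman's rho 3 passed, the others being miR-137-5p with miR-138-2-3p (rho -0.53, adjusted permutation p 0.0257) and with miR-138-5p (rho -0.53, adjusted permutation p 0.0257), whose Pearson's r of -0.44 and -0.40 did not pass (adjusted permutation p 0.191 and 0.208). As the miR-137-3p values fall into 2 separate ranges, the pair of miR-137 arms is also given within them, as a description: r was 0.14 and rho 0.23 in the 9 rats and r 0.47 and rho 0.49 in the other 20. The ranges were set by miR-137-3p itself, and narrowing the range of 1 measure lowers r by construction. Within sites r was 0.49 for UEF, 0.65 for Monash and 0.94 for UCLA. When libraries were scaled by total counts alone, 16 of the 21 pairs passed, so the number of pairs that pass depends on the scaling. The sign of the negative pairs did so too. With total counts alone, Pearson's r of miR-137-5p was 0.43 with miR-138-2-3p and 0.51 with miR-138-5p (adjusted permutation p 0.0334 and 0.0113).

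The miRNAs most like each member were taken as the 3 tested miRNAs outside the 7 members with the highest Spearman correlation over the 29 rats, as a description. For miR-137-3p they were miR-3561-3p (rho 0.93), miR-207 (0.92) and miR-1193-3p (0.90), and for miR-137-5p they were miR-337-3p (0.87), miR-879-5p (0.85) and miR-1193-3p (0.84). miR-1193-3p was at 7.71 to 24.4 CPM in the Monash sham, Monash TBI− and UCLA TBI+ rats and at 38.5 to 155 CPM in the others, and miR-337-3p at 6.47 to 10.8 and 36.1 to 110.3 CPM. Both separated the same 9 rats as miR-137-3p did, and so did miR-879-5p. The ranges overlapped narrowly for miR-3561-3p (64.7 to 149.6 against 149.3 to 402 CPM) and miR-207 (27.7 to 47.1 against 46.0 to 162 CPM). All were picked by their correlation with the miR-137 rows over the same rats, so likeness in this split is partly built in. Within those 9 rats rho with miR-137-3p was 0.85 for miR-3561-3p, -0.23 for miR-207 and -0.15 for miR-1193-3p. Within the other 20 rats it was 0.80, 0.89 and 0.81.

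The miR-138 rows had other neighbours. miR-138-5p was most like miR-27a-3p (rho 0.74), miR-23a-3p (0.74) and miR-185-5p (0.73), and miR-138-2-3p most like miR-223-3p (0.70), miR-328b-3p (0.70) and miR-144-5p (0.65), of which miR-223 is abundant in neutrophils and miR-144 in red cells. In residuals after site and condition, rho of miR-138-2-3p was 0.47 with miR-223-3p, 0.62 with miR-328b-3p and 0.48 with miR-144-5p. A part of blood cells in its level was not tested. miR-138-1-3p was most like miR-219b (0.65), miR-874-3p (0.59) and miR-452-3p (0.55). miR-153-3p was most like miR-3595 (0.70), miR-881-3p (0.69) and miR-3558-5p (0.60), and miR-153-5p like miR-1297 (0.58), miR-568 (0.53) and miR-124-3p (0.52). Members were not candidates in these rankings, which therefore do not show how near one member was to another.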

How the data were processed

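Tail vein plasma from 29 rats was profiled by small RNA sequencing with QIAseq libraries. Per the paper and labels, the authors trimmed reads with cutadapt, aligned them with Bowtie to Rnor_6.0, annotated them with miRBase and deposited whole-number counts per miRNA without normalization. Whether reads of the same molecule were merged is not stated. Rats were grouped by the labels. Rows passing filterByExpr (minimum count 10, 751 of 754) were tested with edgeR 4.0.16 (R 4.3.3) by TMM scaling, a quasi-likelihood F test with site and condition, and Benjamini-Hochberg adjustment at 0.05 over all rows tested. DESeq2 1.42.0, other scalings, filters, covariates, leaving out sites and each rat were alternatives. The effects of TBI by site used 6 means and those of TBI+ by site 9 means, the latter added after the data had been seen, as were 2 of the 4 ratios. Ratios were tested by exact permutation within site or condition (scipy 1.17.1), and correlations by permutation with 100000 resamples over 21 pairs. CPM on the log2 scale used a prior count of 2. The fits were tested on simulated data. The members and lists were chosen with earlier results of these data known. All 7 members were tested in each edgeR comparison, but not all are named in the text for each. The 3 nearest miRNAs of each member are named. Where the brain list is given, those past the threshold or the 3 lowest in p are named. The deposited replicate numbers were not used to pair rats. Sequences are from RefSeq GRCr8, and no coordinates of Rnor_6.0 were used.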

Additional observations from a re-analysis of the deposited data

Results flagged for a closer look

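In groups of 4 to 10 rats, a rat was listed when its gap to the nearest other rat was large against the range of its group, a rule that chance meets in about 1 of 20 groups. It was met 6 times in 56 checks. miR-137-5p stood at 84.8 CPM in UEF TBI+ rat 4, where the next TBI+ rat had 42.4 CPM. miR-138-5p stood at 173 CPM in UEF TBI− rat 2 against 104 CPM for the next TBI− rat, and miR-138-2-3p at 108 CPM in Monash TBI− rat 3 against 71.8 CPM. miR-153-3p stood at 16.5 CPM, from 42 counts, in UCLA TBI− rat 3, with 9.51 CPM in the next UCLA rat. miR-153-5p stood at 50.3 CPM, from 120 counts, in Monash TBI+ rat 2, both among the TBI+ rats and among the Monash rats, with 19.7 CPM next in each.

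Effects that differed between sites were found 3 times by a test of the difference itself. The TBI effect on miR-138-1-3p did so with an edgeR adjusted p of 0.0343. The TBI+ effect did so on miR-137-3p (edgeR adjusted p 2.45e-05) and miR-137-5p (edgeR adjusted p 0.0148), in a model chosen after the values had been seen.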

How the results depend on the processing

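Of 566 values under alternative settings 510 kept their direction and their side of the threshold, as did 1973 of 2117 that each left out a rat. The opposite TBI+ differences of miR-137-3p at Monash and UCLA passed under each alternative run. For the other values below, the cause of a change was not tested.

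With the replicate number as a block, the UEF minus Monash difference of miR-137-3p was 1.03 (0 of 7 members called), the TBI effect of miR-138-1-3p by site had an edgeR adjusted p of 0.0849 (0 called), miR-153-5p at Monash was 3.69 (1 called), the ratio of miR-138-5p to miR-138-1-3p for UEF minus UCLA was 0.10, and no other call changed. Deviations of 28 same-numbered pairs correlated between -0.42 and 0.40, with a median of -0.01. For 68 pairs with different numbers the range was -0.56 to 0.55, with a median of -0.008. The deviations are from means of groups of 2 to 4 rats, which ties them to each other, so they cannot decide whether the numbers pair rats.

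With total counts alone, miR-137-3p for UEF minus Monash was 1.12 (0 called), miR-153-5p at Monash 4.13 (1 called), the miR-137-5p adjusted p by site 0.0906 (1 called), miR-138-5p for TBI+ against TBI− 0.052, and 16 of 21 pairs of members passed. With the hemolysis ratio, miR-138-1-3p by site had 0.0521 (0 called), miR-153-5p at Monash was 3.70 and lost its call (edgeR adjusted p 0.0536) while miR-137-5p there gained one (0.0483), and 1 member was called over the 3 sites. DESeq2 called 1 member over the 3 sites, 1 for TBI at UEF, 1 at UCLA and 3 for TBI+ at Monash, where miR-137-5p was added (DESeq2 adjusted p 0.0276). With at least 10 counts in every rat, 1 was called for TBI+ at Monash. In sham rats alone 2 were called over the 3 sites, and in TBI rats alone miR-137-3p for UEF minus Monash was 0.78 (0 called) and 1 was called for UEF minus UCLA.

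Without the UCLA rats, 1 member (miR-138-1-3p) was called for TBI against sham. TBI against sham became -0.12 for miR-137-3p and -0.10 for miR-138-1-3p without the Monash rats, and -0.37 for miR-138-1-3p without the UEF rats. TBI+ against TBI− became -0.66 for miR-137-3p and -0.14 for miR-137-5p without the Monash rats, -0.051 for miR-138-1-3p, -0.047 for miR-138-2-3p and 0.031 for miR-138-5p without the UEF rats, -0.085 for miR-138-2-3p and 0.11 for miR-153-3p without the UCLA rats, and -0.0088 for miR-138-2-3p without a site term.

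For the miR-153 ratio of 3p to 5p, TBI against sham was -0.040 with a pseudocount of 1, -0.019 with labels exchanged over all rats (TBI+ against TBI− -2.36) and -0.92 among rats with at least 10 counts of both arms, where TBI+ against TBI− was 0.12, UEF minus Monash 0.91, UEF minus UCLA 0.93 and Monash minus UCLA -0.0077.

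Leaving out each rat gave 1.01 to 1.45 for miR-137-3p in UEF minus Monash (0 to 1 called), adjusted p of 0.00167 to 0.175 for miR-138-1-3p by site (0 to 1 called) and of 0.00543 to 0.0684 for miR-137-5p by site (1 to 3 called), and 2.84 to 6.49 for miR-153-5p at Monash (1 to 3 called), the highest without Monash TBI− rat 1. The 3-site count was 0 to 1, TBI at UEF 0 to 2, TBI at UCLA 0 to 1 and TBI+ at UCLA 1 to 2. TBI+ against TBI− was -0.059 to 0.39 for miR-137-3p, -0.0076 to 0.14 for miR-138-2-3p, -0.097 to 0.070 for miR-138-5p and -0.22 to 0.036 for miR-153-3p. The ratio of miR-138-5p to miR-138-1-3p was -0.39 to 0.040 for TBI and -0.34 to 0.11 for UEF minus UCLA, and the miR-153 ratio -0.34 to 0.31 for TBI, -2.73 to -1.82 for TBI+, -0.90 to 0.055 for UEF minus UCLA and -0.22 to 1.09 for Monash minus UCLA.

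Depth limits miR-153 most, and the Monash TBI+ group held 2 rats, so leaving out either takes the spread of the other from the remaining groups. Replicates are separate rats, but site stands together with vendor, housing, feeding, analgesia, antibiotic, fluids and handling, which cannot be told apart.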
